A study of Homo sapiens with 8 samples.

Results

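The enzymes of cholesterol and fatty acid synthesis and their main regulators were followed in TMD8, an established line of the ABC type of diffuse large B cell lymphoma. The set held 33 of the 25066 genes in the deposited table, taken by name from the textbook pathways. It comprised 9 genes of the mevalonate and isoprenoid steps and 11 of the squalene and sterol steps (together 20 sterol enzymes), 5 regulators and sterol carriers, and 8 enzymes of fatty acid synthesis. All 33 were found, SC4MOL (now MSMO1) and SC5DL (now SC5D) under older symbols, and all were among the 12531 genes that passed the filter on low values.

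RNA was sequenced from 8 libraries in 4 groups of 2. The cells expressed Cas9 from a lentivirus and stably carried a control guide RNA (sgCTRL, genotype KLHL14(+/+)) or one targeting KLHL14 (sgKLHL14, genotype KLHL14(-/-)). KLHL14 is a BTB-Kelch protein that serves as an adaptor of a ubiquitin ligase. Each kind of cell received DMSO, the solvent, or 2 nM ibrutinib for 24 h. Ibrutinib covalently blocks BTK, a kinase below the B cell receptor. The sources used here do not say if the edited cells were a pool or a clone, or if paired libraries came from different cultures. The p-values therefore cover the spread among these libraries, which may be technical.

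Cells build cholesterol from acetyl-CoA through mevalonate, isoprenoid diphosphates, squalene and a series of sterols, and fatty acids from the same acetyl-CoA. The transcription factors SREBF1 and SREBF2 are held in the endoplasmic reticulum with SCAP by INSIG proteins when sterol is plentiful. After release and cleavage they induce lipid genes, SREBF2 mainly those of sterol synthesis and SREBF1 mainly those of fatty acid synthesis. Dividing lymphoma cells need both kinds of lipid for membranes.

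The promoters of 6 members are shown because they span the responses described below, from AACS, TM7SF2, SC4MOL and SREBF2, which rose with ibrutinib, to MVK and SCD, which did not pass the test. They are from RefSeq (GRCh38.p14) and run 5′ to 3′ on the gene's strand from 250 bases before to 50 bases after a transcription start. Capitals mark matches, on either strand, to a core of the sterol regulatory element bound by SREBF factors (TCACNCCA) or to the CCAAT box (CCAAT) bound by their partner NF-Y.
AACS promoter, chr12:125065185-125065484, plus strand: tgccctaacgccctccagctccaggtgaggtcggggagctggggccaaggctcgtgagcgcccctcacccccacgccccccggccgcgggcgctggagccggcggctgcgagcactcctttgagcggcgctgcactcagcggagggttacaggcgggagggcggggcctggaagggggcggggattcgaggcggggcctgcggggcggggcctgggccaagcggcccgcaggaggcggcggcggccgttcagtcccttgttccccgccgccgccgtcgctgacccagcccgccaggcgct
TM7SF2 promoter, chr11:65111622-65111921, plus strand: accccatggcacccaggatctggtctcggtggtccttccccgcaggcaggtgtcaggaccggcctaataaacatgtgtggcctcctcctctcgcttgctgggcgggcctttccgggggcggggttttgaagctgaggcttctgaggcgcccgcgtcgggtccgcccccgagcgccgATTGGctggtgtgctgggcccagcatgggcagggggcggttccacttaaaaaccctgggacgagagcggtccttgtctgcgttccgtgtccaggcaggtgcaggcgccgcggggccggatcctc
SC4MOL promoter, chr4:165327419-165327718, plus strand: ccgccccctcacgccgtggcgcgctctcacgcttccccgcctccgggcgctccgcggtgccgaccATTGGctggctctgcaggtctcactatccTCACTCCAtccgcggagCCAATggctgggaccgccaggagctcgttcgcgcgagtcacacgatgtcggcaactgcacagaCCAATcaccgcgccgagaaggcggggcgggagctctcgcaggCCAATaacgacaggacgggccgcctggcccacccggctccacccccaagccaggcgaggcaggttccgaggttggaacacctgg
SREBF2 promoter, chr22:41832855-41833154, plus strand: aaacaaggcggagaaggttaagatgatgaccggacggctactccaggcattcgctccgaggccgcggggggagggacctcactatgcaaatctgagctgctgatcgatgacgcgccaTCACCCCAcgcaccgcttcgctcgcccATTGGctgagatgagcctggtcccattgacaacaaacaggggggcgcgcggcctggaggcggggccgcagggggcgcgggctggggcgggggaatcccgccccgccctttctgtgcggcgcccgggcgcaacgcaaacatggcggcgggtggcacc
MVK promoter, chr12:109573544-109573843, plus strand: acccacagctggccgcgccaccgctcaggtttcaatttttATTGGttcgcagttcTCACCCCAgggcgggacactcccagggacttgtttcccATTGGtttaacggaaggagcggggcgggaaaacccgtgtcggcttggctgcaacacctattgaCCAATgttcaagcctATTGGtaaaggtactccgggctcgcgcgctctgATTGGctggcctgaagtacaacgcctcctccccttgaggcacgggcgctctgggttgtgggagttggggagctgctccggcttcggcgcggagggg
SCD promoter, chr10:100346983-100347282, plus strand: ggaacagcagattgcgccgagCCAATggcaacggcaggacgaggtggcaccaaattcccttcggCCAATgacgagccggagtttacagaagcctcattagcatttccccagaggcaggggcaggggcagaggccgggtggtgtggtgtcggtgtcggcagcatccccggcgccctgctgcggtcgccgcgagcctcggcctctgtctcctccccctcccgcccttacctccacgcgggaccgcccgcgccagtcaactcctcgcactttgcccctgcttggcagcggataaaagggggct

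RefSeq windows were at hand for 29 of the 33 genes, 41 windows in all since some genes have several starts. The sterol element core lay in 3 of them, and in 3.95% of 35116 windows of the same length. Its first base was at -195 from the start in MVK, -156 in SC4MOL and -133 in SREBF2. All 3 are among the promoters shown above, so the core is more frequent there than among all 41 windows. A CCAAT box lay in 26 of the 41 windows and in 34.6% of all windows. The 3 windows with the sterol element core also held a CCAAT box, as did 1.41% of all windows, and the matches overlapped in 0 of them. AACS, the member with the largest increase, held neither motif in its window. Such matches describe letters and are not measured binding sites.

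Depth was 12333876 to 23467110 reads per library. Members other than FADS2 had 179 to 30291 reads per library, and FADS2 had 8 to 20. The targeted gene was examined first. With the control guide the log2 level of KLHL14 was 12.07 and 12.05 in DMSO and 12.30 and 12.30 in ibrutinib, and with the KLHL14 guide it was 12.19 and 12.33 in DMSO and 13.16 and 13.16 in ibrutinib. Its mRNA was thus not lower in the libraries labelled sgKLHL14, and every direction by guide below rests on that label. The 6 B cell markers checked had mean log2 levels of 11.39 to 15.58. Of the others, 1 of 5 T cell, 0 of 5 myeloid, 3 of 5 epithelial or fibroblast and 0 of 4 measured hepatocyte or adipocyte markers passed the level filter, and CD3D, CD3E, FCGR3A, APOA1 and APOB had no reads.

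Levels are log2 of reads times a scaling factor of the library, as deposited, and are not divided by transcript length, so they compare libraries and not genes. A change is a difference of group means on that scale, with its standard error (SE) and a Benjamini-Hochberg adjusted p from limma over all 12531 genes. A gene was called at an adjusted p under 0.05.

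The first comparison shows the response to ibrutinib in cells with the control guide. Of the 20 sterol enzymes 8 rose and 0 fell (40% higher, against 18.1% of all genes called higher and 17.0% called lower). Of the 8 fatty acid enzymes 0 were called by limma, with 2 at an unadjusted p under 0.05 and 0 called by voom. Of the 5 regulators and carriers 1 rose. The median log2 change was 0.16 for the sterol enzymes, 0.12 for the regulators and -0.073 for the fatty acid enzymes, against 0.017 for all genes. Over the 33 members 9 were called (27.3%, against 35.1% of all genes in either direction), a share no larger than that of the whole table. In bulk RNA, fewer cells in a given state and less RNA per cell cannot be told apart.

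**Figure D1:**
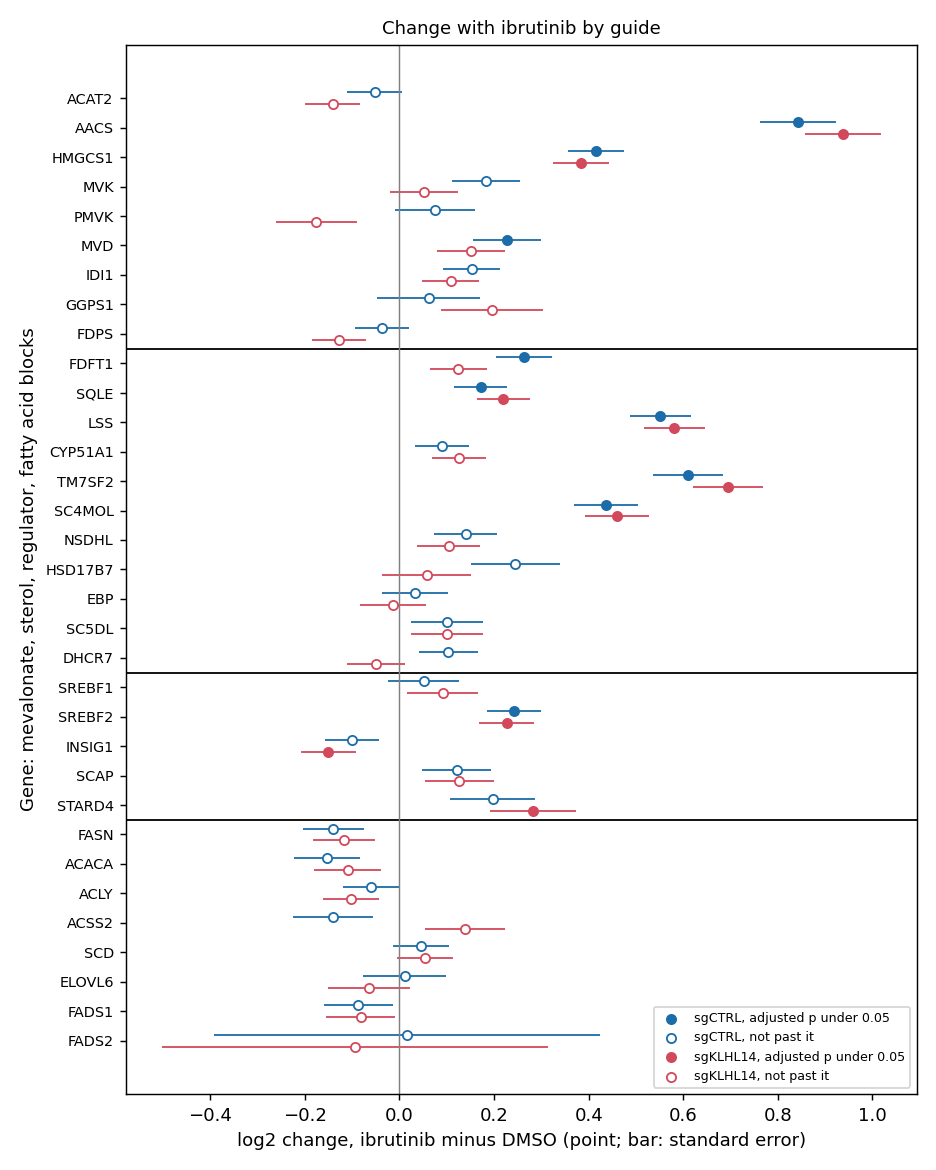
Change of each member with ibrutinib (x axis, log2, ibrutinib minus DMSO; points, change; bars, standard error) for each guide, with filled points at an adjusted p under 0.05 and genes grouped by block on the y axis. AACS lies farthest right with both guides (0.84 and 0.94), and 0 of the 8 fatty acid genes have a filled point.

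AACS, which makes acetoacetyl-CoA from the ketone body acetoacetate, had log2 levels of 9.23 and 9.30 in DMSO and 10.10 and 10.12 in ibrutinib. The treatments lay much farther apart than the libraries within each, and AACS rose by 0.84 (SE 0.080, 1.79-fold, limma adjusted p = 1.13e-07). ACAT2, the thiolase that makes the same compound from acetyl-CoA, stood at 11.96 and 11.95 in DMSO and 11.88 and 11.92 in ibrutinib and was not called. HMGCS1, which condenses acetoacetyl-CoA to HMG-CoA, went from 14.10 and 14.21 to 14.56 and 14.58. Its groups did not overlap, and it rose by 0.42 (SE 0.059, adjusted p = 1.85e-05).

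Among the enzymes that carry mevalonate on to isoprenoid diphosphates, MVD, the decarboxylase, was called. It stood at 11.39 and 11.22 in DMSO and 11.54 and 11.53 in ibrutinib and rose by 0.23 (SE 0.072, limma adjusted p = 0.0192). MVK, the first kinase, and IDI1, the isomerase, narrowly missed the threshold, with differences of 0.18 (adjusted p = 0.0534) and 0.15 (adjusted p = 0.0573). PMVK, the second kinase, and FDPS and GGPS1, which make farnesyl and geranylgeranyl diphosphate, were not called, and FDPS stood at 13.41 and 13.44 in DMSO and 13.36 and 13.41 in ibrutinib.

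Of the 11 enzymes from squalene to cholesterol 5 rose. LSS, which closes the sterol rings to form lanosterol, went from 12.86 and 12.78 to 13.38 and 13.36, a rise of 0.55 (SE 0.065, 1.47-fold, limma adjusted p = 1.91e-06). TM7SF2, a sterol reductase, went from 10.34 and 10.31 to 10.95 and 10.91, a rise of 0.61 (SE 0.074, 1.53-fold, limma adjusted p = 2.82e-06). SC4MOL, an oxidase that removes methyl groups from the sterol rings, went from 12.06 and 12.25 to 12.63 and 12.55, a rise of 0.44 (SE 0.067, limma adjusted p = 4.82e-05). In all 3 genes both ibrutinib libraries lay above both DMSO libraries.

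In GENCODE 29 the end of VPS51, a vesicle tethering gene on the same strand listed here as C11orf2, overlaps the start of TM7SF2. C11orf2 stood at 9.57 and 9.66 in DMSO and 10.04 and 9.95 in ibrutinib with the control guide, a rise of 0.38 (SE 0.080, limma adjusted p = 0.00105). With the KLHL14 guide its difference was 0.20 (SE 0.080, limma adjusted p = 0.0543). Its part in the level of TM7SF2 was not tested.

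FDFT1, the squalene synthase, went from 13.84 and 13.96 to 14.17 and 14.15, a rise of 0.26 (SE 0.060, limma adjusted p = 0.00200). SQLE, the epoxidase of the next step, went from 13.50 and 13.44 to 13.65 and 13.63, a rise of 0.17 (SE 0.057, limma adjusted p = 0.0244). These were smaller increases, again with no overlap of libraries. Lack of overlap did not set called genes apart, since 28 of the 33 members had none here, among them 6 of the 8 fatty acid enzymes. The share over all genes was not computed. Of the 6 later enzymes not called, HSD17B7, a ketoreductase of sterol demethylation, came closest, at 0.24 (adjusted p = 0.0502). CYP51A1, NSDHL, EBP, SC5DL and DHCR7, which demethylate, isomerise, desaturate or reduce the sterol rings, differed by 0.033 (EBP) to 0.14 (NSDHL).

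The MVD and SQLE calls each passed in 12 of 17 alternatives, with adjusted p from 0.00763 to 0.216 for MVD and from 0.0137 to 0.180 for SQLE. Both were lost without sgCTRL DMSO replicate 2, where MVD was at 0.14 (adjusted p = 0.216) and SQLE at 0.14 (adjusted p = 0.132). They were also lost without sgCTRL ibrutinib replicate 1 (adjusted p = 0.102 and 0.180) or replicate 2 (adjusted p = 0.0912 and 0.112). AACS, HMGCS1, LSS, TM7SF2, SC4MOL and FDFT1 passed in all 17.

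Of the regulators, SREBF2 went from 13.19 and 13.18 to 13.44 and 13.42, a rise of 0.24 (SE 0.058, limma adjusted p = 0.00282). Each pair was tight relative to the gap between them. SREBF1 stood at 10.82 and 10.77 in DMSO and 10.86 and 10.83 in ibrutinib and was not called. SCAP, the escort of both factors, INSIG1, which retains SCAP, and STARD4, a cytosolic sterol carrier, were not called in these cells.

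FASN, the fatty acid synthase, stood at 13.69 and 13.54 in DMSO and 13.49 and 13.46 in ibrutinib. SCD, the desaturase that makes oleate, stood at 15.12 and 15.10 in DMSO and 15.15 and 15.17 in ibrutinib. The 8 differences ran from -0.15 (ACACA, the acetyl-CoA carboxylase) to 0.047 (SCD), and the smallest adjusted p was 0.0982 (ACACA). Apart from FADS2, a desaturase of polyunsaturated fatty acids whose few reads gave an SE of 0.41, the 95% intervals of the differences lay between -0.32 and 0.19. The difference between sterol and fatty acid enzymes was not itself tested.

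**Figure D2:**
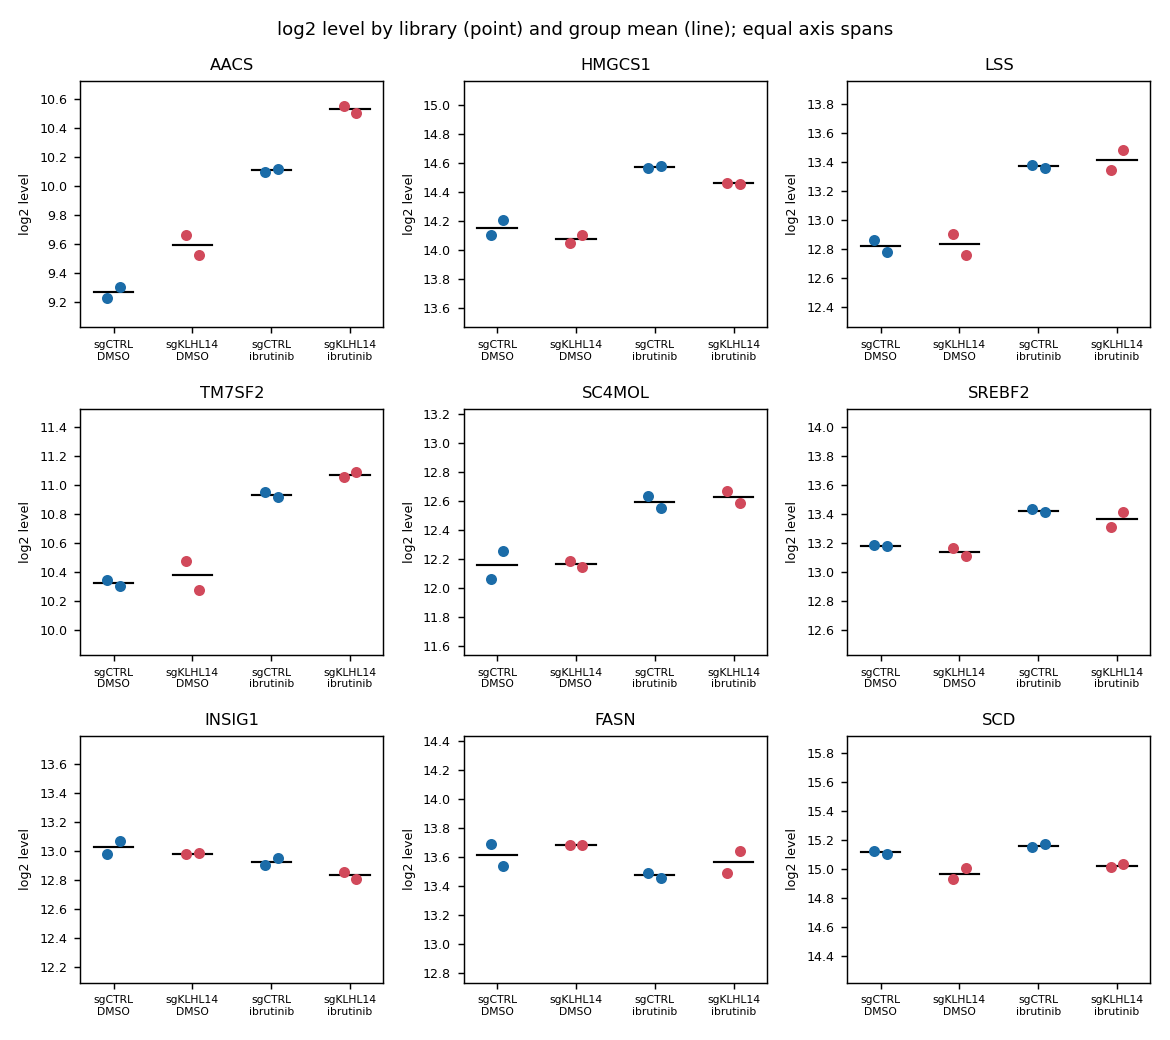
log2 level (y axis, same span in each panel) of selected members in the 4 groups (x axis), with 1 point per library and a line at the group mean. AACS is higher in each group drawn further to the right, from 9.23 and 9.30 in sgCTRL DMSO to 10.55 and 10.51 in sgKLHL14 ibrutinib.

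With the KLHL14 guide, 6 of the 20 sterol enzymes rose with ibrutinib and 0 fell (30% higher, against 19.9% of all genes called higher and 19.4% called lower). All 6 were among the 8 called with the control guide. Of the 8 fatty acid enzymes 0 were called by limma, with 0 at an unadjusted p under 0.05 and 0 called by voom. The median log2 change was 0.12 for sterol enzymes, 0.13 for regulators and -0.088 for fatty acid enzymes, against 0.010 for all genes. Over the 33 members 9 were called (27.3%, against 39.3% of all genes in either direction), 8 higher and 1 lower.

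AACS went from 9.66 and 9.52 in DMSO to 10.55 and 10.51 in ibrutinib, a rise of 0.94 (SE 0.080, 1.91-fold, limma adjusted p = 2.68e-08). These ibrutinib libraries were the highest of all 8 for this gene. TM7SF2 went from 10.48 and 10.28 to 11.05 and 11.09, a rise of 0.69 (SE 0.074, 1.62-fold, limma adjusted p = 4.86e-07). LSS went from 12.90 and 12.76 to 13.34 and 13.48, a rise of 0.58 (SE 0.065, limma adjusted p = 8.72e-07). In both genes the spread within a treatment was small beside the gap between treatments.

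SC4MOL went from 12.19 and 12.14 to 12.67 and 12.58, a rise of 0.46 (SE 0.067, limma adjusted p = 2.16e-05). HMGCS1 went from 14.05 and 14.11 to 14.47 and 14.46, a rise of 0.38 (SE 0.059, limma adjusted p = 3.74e-05). SQLE went from 13.39 and 13.39 to 13.65 and 13.57, a rise of 0.22 (SE 0.057, limma adjusted p = 0.00450). For these 3 genes the groups did not overlap, which held for 25 of the 33 members and 6 of the 8 fatty acid enzymes in this comparison. Here too the share over all genes was not computed. FDFT1 and MVD were not called here, with differences of 0.12 (adjusted p = 0.109) and 0.15 (adjusted p = 0.103).

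SREBF2 went from 13.17 and 13.12 to 13.31 and 13.42, a rise of 0.23 (SE 0.058, limma adjusted p = 0.00398). STARD4 went from 10.93 and 11.27 to 11.36 and 11.40, a rise of 0.28 (SE 0.091, limma adjusted p = 0.0182) over DMSO libraries that lay far apart. INSIG1, which retains the SREBF factors and is itself one of their targets, went from 12.97 and 12.99 to 12.86 and 12.81, a change of -0.15 (SE 0.057, limma adjusted p = 0.0445). It was the one member called lower. With the control guide INSIG1 stood at 12.98 and 13.07 in DMSO and 12.90 and 12.95 in ibrutinib, and its difference was -0.10 (adjusted p = 0.189).

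Each of these regulator calls was lost without some single library. STARD4 was at 0.11 without sgKLHL14 DMSO replicate 1 (adjusted p = 0.334) and at 0.45 without its replicate 2, and its adjusted p over 17 alternatives ran from 0.000424 to 0.334. Without sgKLHL14 ibrutinib replicate 2 the adjusted p was 0.104 for STARD4 and 0.0611 for SREBF2, whose range was 0.00213 to 0.0611. INSIG1 passed in 6 of 17 alternatives (adjusted p from 0.0342 to 0.197) and was lost when any library other than the sgCTRL DMSO pair was left out.

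The fatty acid enzymes differed by -0.12 (FASN) to 0.14 (ACSS2, which makes acetyl-CoA from acetate). Apart from FADS2, their 95% intervals lay between -0.26 and 0.31. ACLY, the ATP citrate lyase that supplies cytosolic acetyl-CoA, stood at 14.29 and 14.30 in DMSO and 14.14 and 14.25 in ibrutinib. FADS1, a desaturase of polyunsaturated fatty acids, stood at 10.30 and 10.23 in DMSO and 10.20 and 10.17 in ibrutinib, and ELOVL6, an elongase, at 9.44 and 9.44 in DMSO and 9.42 and 9.32 in ibrutinib.

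Averaged over the 9 mevalonate and isoprenoid genes, the sgCTRL ibrutinib libraries lay 0.21 and 0.20 above the sgCTRL DMSO mean and the sgKLHL14 ibrutinib libraries 0.23 and 0.21 above it. Averaged over the 11 squalene and sterol genes the values were 0.27 and 0.23 with the control guide and 0.24 and 0.18 with the KLHL14 guide. For the 8 fatty acid genes they were -0.14 and 0.010 with the control guide and -0.086 and -0.11 with the KLHL14 guide. The sgKLHL14 DMSO libraries stood at 0.11 and 0.015 for mevalonate, 0.038 and -0.052 for sterol and -0.084 and -0.014 for fatty acid genes. Both sterol blocks were thus higher in each ibrutinib library than in any DMSO library. The mevalonate means include AACS, which rose by 0.84 in sgCTRL and 0.94 in sgKLHL14, against block medians of 0.15 and 0.11. The library means of that block without AACS were not computed, so its separation may rest on AACS. The fatty acid block of 8 genes overlapped between treatments with the control guide. With the KLHL14 guide it did not, narrowly, at -0.0845 and -0.0139 in DMSO and -0.0859 and -0.107 in ibrutinib. Over the 7 fatty acid genes other than FADS2 the sgCTRL libraries stood at 0.0263 and -0.0263 in DMSO and -0.0951 and -0.0543 in ibrutinib, so that without FADS2 the groups did not overlap with the control guide. With the KLHL14 guide these 7 genes were at -0.0754 and -0.0369 in DMSO and -0.119 and -0.0743 in ibrutinib, where the groups overlapped slightly. B cell markers moved with treatment too. Their summed level on the linear scale was 82323 to 84767 in sgCTRL DMSO, 117547 to 118469 in sgCTRL ibrutinib, 78892 to 82139 in sgKLHL14 DMSO and 114873 to 118163 in sgKLHL14 ibrutinib. The summed T cell markers were at 38.4 to 40.1 in sgCTRL DMSO and 50.7 to 68.8 in sgCTRL ibrutinib, and at 37.8 to 41.0 in sgKLHL14 DMSO and 58.5 to 70.0 in sgKLHL14 ibrutinib, with CD3D and CD3E at 0. The summed epithelial and fibroblast markers were at 362 to 367 in sgCTRL DMSO, 373 to 395 in sgCTRL ibrutinib, 390 to 438 in sgKLHL14 DMSO and 340 to 398 in sgKLHL14 ibrutinib. Of the 3 that passed the level filter, 1 was called higher and 1 lower with ibrutinib with each guide. The part of these lists in the results was not tested.

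**Figure D3:**
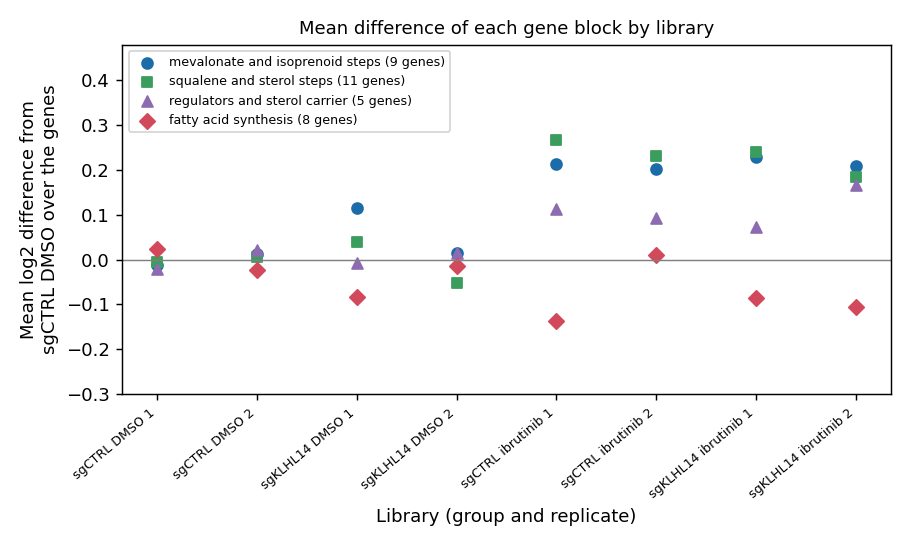
Mean log2 difference from the sgCTRL DMSO mean over the genes of each block (y axis) in each library (x axis), with 1 symbol per block. In sgCTRL ibrutinib replicates 1 and 2 the squalene and sterol block is at 0.27 and 0.23. The fatty acid block, with FADS2 included, is at -0.14 and 0.010 there.

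The guide comparisons show what differed between cells with the KLHL14 guide and those with the control guide. AACS was higher with sgKLHL14 in both treatments. In DMSO the difference was 0.32 (SE 0.080, 1.25-fold, limma adjusted p = 0.0466), and in ibrutinib 0.42 (SE 0.080, 1.34-fold, limma adjusted p = 0.00482), with no overlap of libraries in either. That trait was not particular to AACS, since 13 of 33 members had no overlap in DMSO and 18 of 33 in ibrutinib. The share of all genes without overlap was not computed, so these counts cannot be set against a background. In DMSO AACS was 1 of 33 members called (3.03%, against 1.64% of all genes, 0.782% higher and 0.862% lower). In ibrutinib it was again 1 of 33 (against 2.38% of all genes, 1.59% higher and 0.79% lower), so neither count stands far from the background.

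The DMSO call passed in 5 of 17 alternatives, with adjusted p from 0.0211 to 0.423. It was lost when any library other than sgKLHL14 DMSO replicate 2 was left out, with an adjusted p of 0.423 without sgKLHL14 DMSO replicate 1. The call in ibrutinib passed in 13 of 17, with adjusted p from 0.00190 to 0.0814. It was lost without sgCTRL ibrutinib replicate 1 (0.0814) or 2 (0.0651) and without sgKLHL14 ibrutinib replicate 1 (0.0670).

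In DMSO the next smallest p-values belonged to SCD (-0.15, limma adjusted p = 0.267), PMVK (0.21, 0.270), CYP51A1 (-0.13, 0.303) and ACSS2 (-0.19, 0.320). In ibrutinib they belonged to SCD (-0.14, limma adjusted p = 0.304), SC5DL (-0.15, 0.403), DHCR7 (-0.12, 0.412) and TM7SF2 (0.14, 0.469). None of these passed the test. SCD stood at 14.93 and 15.00 with the KLHL14 guide in DMSO and 15.01 and 15.03 in ibrutinib, below the control guide's libraries in each treatment.

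**Figure D4:**
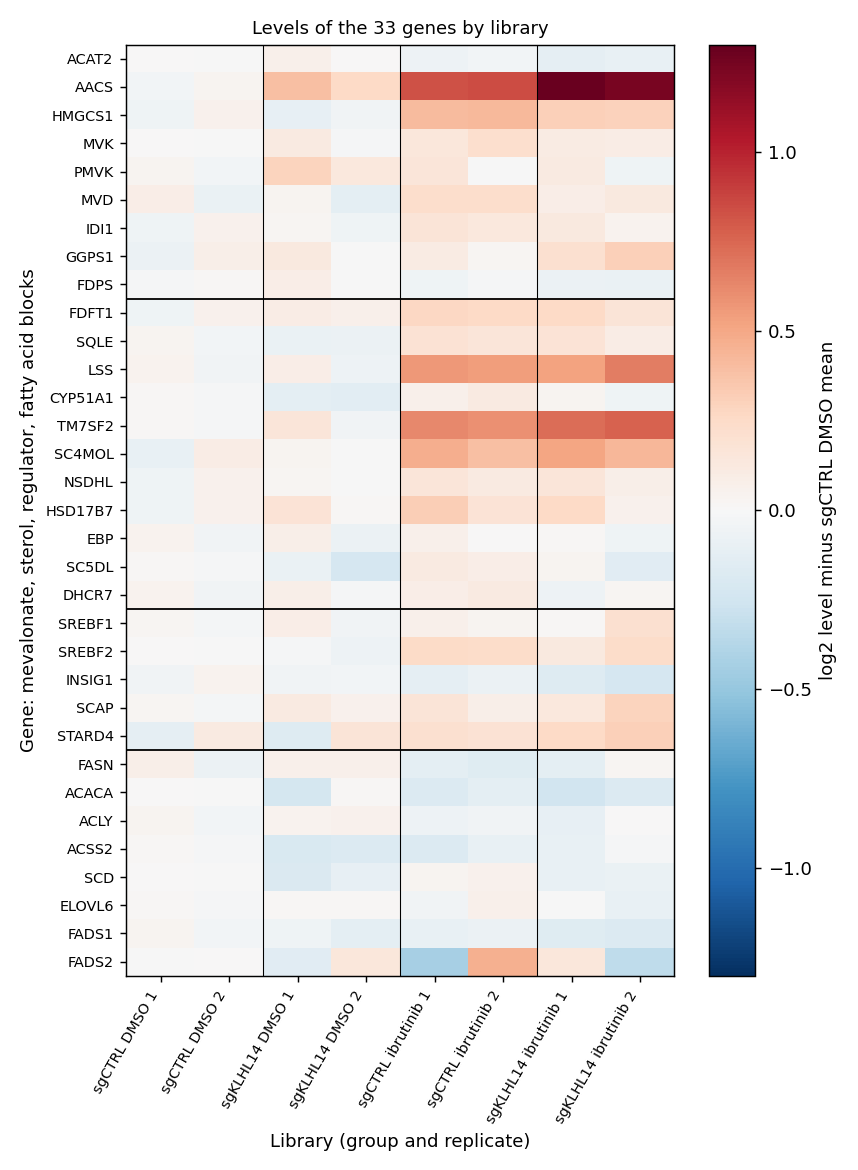
log2 level of each of the 33 members (rows, in 4 blocks) minus its sgCTRL DMSO mean, in the 8 libraries (columns), as colour. The AACS row deepens from sgCTRL DMSO to sgKLHL14 ibrutinib, and the FADS2 row varies between libraries of a group, at 8 to 20 reads each.

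The responses to ibrutinib were also compared between guides. Of 33 members 0 differed by limma (against 0.0239% of all genes, 0.016% higher and 0.00798% lower), with 1 at an unadjusted p under 0.05 and 0 called by voom. The smallest p-values belonged to ACSS2 (0.28, sgKLHL14 response minus sgCTRL response, limma adjusted p = 0.873), PMVK (-0.25, 0.875), DHCR7 (-0.15, 0.922), FDFT1 (-0.14, 0.931) and HSD17B7 (-0.19, 0.936). Apart from FADS2, the SE of these differences was 0.080 to 0.15, which bounds what could be detected.

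Of 24 further genes of sterol regulation and handling, 3 rose and 4 fell with ibrutinib in sgCTRL, and 4 rose and 6 fell in sgKLHL14 (29.2% called in sgCTRL and 41.7% in sgKLHL14, against 35.1% and 39.3% of all genes; medians 0.039 and 0.00025). VLDLR, a lipoprotein receptor, was at 9.62 and 9.68 in sgCTRL DMSO and 8.32 and 8.13 in sgCTRL ibrutinib, a change of -1.42 (SE 0.11, limma adjusted p = 6.35e-09), and it changed by -1.11 in sgKLHL14 (adjusted p = 1.73e-07). ABCA1, a cholesterol exporter, was at 7.62 and 7.66 in DMSO and 8.69 and 8.65 in ibrutinib with the control guide, a rise of 1.03 (SE 0.13, limma adjusted p = 2.89e-06), and rose by 1.15 in sgKLHL14 (adjusted p = 6.60e-07). MBTPS1, the protease that first cuts the SREBF factors, rose by 0.55 (limma adjusted p = 3.43e-06) and 0.68 (adjusted p = 2.11e-07). An exporter and a receptor thus moved in opposite directions with either guide. By guide 0 of the 24 were called by limma in DMSO and 0 in ibrutinib, with 0 and 3 at an unadjusted p under 0.05 and 0 called by voom.

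Of 28 further genes for the supply, elongation, activation and use of fatty acids, 8 rose and 4 fell in sgCTRL and 8 rose and 6 fell in sgKLHL14 (42.9% called in sgCTRL and 50% in sgKLHL14, against 35.1% and 39.3% of all genes; medians -0.058 and 0.035). FADS3, of the same desaturase family as FADS1 and FADS2, was at 6.67 and 6.68 in DMSO and 8.40 and 8.17 in ibrutinib with the control guide. With the KLHL14 guide it was at 7.76 and 7.57 in DMSO and 9.23 and 9.25 in ibrutinib. The 4 groups did not overlap and stood in the same order as those of AACS. FADS3 rose with ibrutinib by 1.61 (SE 0.13, limma adjusted p = 1.38e-08) in sgCTRL and 1.57 (adjusted p = 1.80e-08) in sgKLHL14. It was higher with the KLHL14 guide by 0.99 in DMSO (limma adjusted p = 0.000195) and 0.96 in ibrutinib (adjusted p = 0.000167).

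ACSL1, which activates long-chain fatty acids, changed with ibrutinib by -0.79 (SE 0.065, limma adjusted p = 1.57e-08) in sgCTRL and -0.72 (adjusted p = 5.10e-08) in sgKLHL14. ACSL3, of the same family, changed by -0.59 in sgCTRL (limma adjusted p = 2.04e-07). ACADM, which oxidises medium-chain fatty acids, rose by 0.54 in sgKLHL14 (limma adjusted p = 5.74e-07). In ibrutinib ACADM was higher with the KLHL14 guide by 0.31 (SE 0.058, limma adjusted p = 0.00398), and LPIN1, a phosphatidate phosphatase, by 0.35 (SE 0.065, limma adjusted p = 0.00315). Each of these guide calls passed in 14 of 17 alternatives, with adjusted p from 0.00114 to 0.115 for ACADM and from 0.000970 to 0.148 for LPIN1. ACADM was lost without sgCTRL ibrutinib replicate 1 (0.0851) or 2 (0.0906), and LPIN1 without sgCTRL ibrutinib replicate 2 (0.148) or sgKLHL14 ibrutinib replicate 1 (0.0509).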

How the data were processed

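Per the submitters' processing notes, bcl2fastq, STAR and HTSeq were used with build hg19; settings, annotation and use of strand are not stated there. Reads of overlapping or near-identical genes may therefore be shared. GENCODE 29 lists a gene on the other strand over 20 of the 33 members and on the same strand over 10, and 6 have pseudogene copies by name. AACS has both an overlapping gene on the same strand and a pseudogene copy (AACSP1), and their part in its level was not tested. The authors deposited log2 normalized values per gene, with a row of linear totals kept out of all tests. Every value equalled log2 of whole reads scaled by a library factor, within 0.0006, and genes with 0 reads are listed at 0. The table had 0 columns of other samples.

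Genes with a mean of at least 4.2 over all libraries were kept (12531), none with 0 reads in a library, and no pseudocount was added. A model with 4 group means was fitted in limma 3.58.1 (R 4.3.3) with a trended prior (4 residual and 14.9 prior degrees of freedom). Before that it was tested on simulated data for ibrutinib in sgCTRL. There it recovered 58.8% of 1.5-fold and 90.5% of 2-fold changes, and 5.64% of its calls were false. Most differences of the members were smaller than 1.5-fold, so a gene not called may still have changed. Comparisons share libraries, so their values are given side by side. Named are the members called in a comparison (the 5 with the smallest p where fewer than 5 were called) and up to 3 called genes of each further list. The members and lists were chosen with earlier results of these data known, and not every gene of the pathways is reported here.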

Additional observations from a re-analysis of the deposited data

How the results depend on the processing

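Of 17 alternatives, 8 left out 1 library each and 9 changed the filter, scaling, pseudocount, variance model, depth, count model or replicate block. The voom fit on recovered whole reads was chosen after seeing the data; the planned edgeR and DESeq2 fits were not run, because the table was not entered as counts. No change of a gene chosen by the naming rule turned its direction under them; differences given for other genes were not recomputed. Members called when libraries were left out in turn were 7 to 14 for ibrutinib in sgCTRL (14 without sgKLHL14 DMSO replicate 1 or 2), 6 to 9 in sgKLHL14 and 0 to 1 for the guide in either treatment. For the guide in DMSO 0 members were called with no level filter, quantile scaling, no variance trend, thinned reads or voom, and in ibrutinib 0 with no variance trend. The median change without single libraries was 0.15 to 0.17 for sterol enzymes, 0.079 to 0.16 for regulators and -0.11 to -0.038 for fatty acid enzymes in sgCTRL, and 0.073 to 0.15, 0.048 to 0.21 and -0.088 to -0.026 in sgKLHL14. With no level filter (19243 genes tested) 47 genes were called by guide in DMSO and 155 in ibrutinib, against 206 and 298, and with no variance trend 25 and 95, while calls for the difference in response went from 3 to 0 with both. Leaving out libraries gave 64 to 530 genes by guide in DMSO, 122 to 363 in ibrutinib and 2902 to 4631 for ibrutinib in sgCTRL, against 4403. The cause of these shifts in counts was not tested.

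The sources used here do not say if replicate numbers pair the libraries, and the main fit did not pair them. Differences between replicates 1 and 2 correlated across genes at -0.055 to 0.12 between groups, highest between the sgKLHL14 groups, which does not settle it. With the replicate block, members called were 13 and 9 for ibrutinib in sgCTRL and sgKLHL14, against 9 and 9 in the main fit. They were 1 and 1 by guide and 0 in the difference in response. Over all genes 368 were called by guide in DMSO and 5 for the difference in response, against 206 and 3 in the main fit. For ibrutinib, calls over all genes in the 9 alternatives that kept every library ran from 3380 to 4757 in sgCTRL, against 4403. In sgKLHL14 they ran from 3899 to 5262, against 4924. The figures of the replicate block alone for ibrutinib are not reported here. Depth limits FADS2 above all.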

Other observations

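Of 15 genes that use isoprenoids for purposes other than sterol, 1 rose and 3 fell with ibrutinib in sgCTRL, and 2 rose and 2 fell in sgKLHL14 (26.7% called in sgCTRL and 26.7% in sgKLHL14, against 35.1% and 39.3% of all genes; median log2 changes 0.038 and 0.0075). PDSS1, a subunit of the enzyme that builds the side chain of coenzyme Q, was at 9.79 and 9.91 in sgCTRL DMSO and 9.34 and 9.46 in sgCTRL ibrutinib, a change of -0.45 (SE 0.088, limma adjusted p = 0.000524), and it changed by -0.40 in sgKLHL14 (adjusted p = 0.00131). Its partner subunit PDSS2 rose by 0.37 (SE 0.10, limma adjusted p = 0.00784) in sgKLHL14, a call lost without sgKLHL14 DMSO replicate 1 (adjusted p = 0.0640, with 0.00601 to 0.0640 over 17 alternatives). RABGGTB, a subunit of the enzyme that prenylates Rab proteins, changed by -0.26 (SE 0.056, limma adjusted p = 0.00110) in sgCTRL. ICMT, which methylates prenylated proteins, changed by -0.23 (SE 0.060, limma adjusted p = 0.00612) in sgCTRL and by -0.24 in sgKLHL14 (adjusted p = 0.00335). The sgCTRL call of ICMT was lost without sgCTRL ibrutinib replicate 1 (0.0657) or 2 (0.0526), with adjusted p from 0.00390 to 0.0657 over 17 alternatives. By guide 0 of the 15 were called by limma or voom, with 0 at an unadjusted p under 0.05 in DMSO and 2 in ibrutinib by limma.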
